A study of Mus musculus with 6 samples.

Results

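The genes described here are targets of p53, the transcription factor that answers DNA damage and other stress, in lung cells of mice with 2 Bmi1 genotypes. The list holds 32 genes chosen by name as known p53 targets. All probe sets whose single gene symbol matched a listed gene were taken, and the probe set with the highest mean over the arrays stood for its gene. By this rule 30 of the 32 genes were measured, with 59 of the 34945 single-gene probe sets, out of 18193 genes in all. Bax and Gdf15 were not analysed here.

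The study measured RNA on 6 Affymetrix Mouse Genome arrays, 3 from animals labelled Bmi1 wild-type and 3 from animals labelled Bmi1 mutant, whose genotype field reads Bmi1 null. All animals were female, 4 months old and of a Bl6/129 mixed background, and the labels name no treatment of the animals. Lung cells were sorted as alive and without surface CD31 or CD45 and went into RNA extraction without culture. The titles call the 3 arrays of each genotype biological replicates. The labels do not say whether an array stands for 1 animal or a pool. Nor do they say which part of Bmi1 is missing, or in which cells. The p values thus cover only how far the arrays spread, and how much of that spread is technical is not known.

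In unstressed cells p53 is kept scarce by the ubiquitin ligase Mdm2, which is itself a p53 target, so that Mdm2 transcripts follow p53 activity in a feedback loop. Active p53 induces genes that stop the cell cycle, genes that start death through mitochondria or death receptors, genes that repair DNA, and genes that limit oxidative stress and growth. Bmi1, a Polycomb subunit, silences the locus of Ink4a and Arf in many tissues, and Arf inhibits Mdm2. Loss of Bmi1 has been described to raise p53 activity through this locus, and the comparison therefore bears on whether p53 targets differ between the genotypes in lung cells.

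p53 binds pairs of a 10-base half-site, and such half-sites were looked for in the RefSeq promoter windows of the members (GRCm38.p6, 250 bases before to 50 after a start site). The half-site consensus reads the same on both strands. It was found in 9 of the 29 windows listed for 22 members (31.0%), against 8.36% of all 32851 windows. A tandem pair, with at most 1 mismatch per half-site and a gap of at most 13 bases, was found in 2 of the 29 (6.9%), in Ccng1 and Rps27l, against 2.71% of all windows. Windows of p53 regulators held a tandem pair in 3 of 39 (7.69%) and those of further p53 targets in 2 of 30 (6.67%), shares on either side of that of the members. For single half-sites the shares were 7.69% and 16.7%. A match describes these letters and is no evidence of binding. The windows of Phlda3, Eda2r and Dcxr held no match.

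Below are the stretches before the start site that held a half-site, 5′ to 3′ on the strand of the gene, with the matching bases in capitals. They are shown because they carry the letters that p53 is known to read. Mdm2 lies at chr10:117710910-117710969 (minus strand), Ccng1 at chr11:40755437-40755506 (minus), Ckap2 at chr8:22185988-22186047 (minus), Ei24 at chr9:36797335-36797369 (minus), Polk at chr13:96519384-96519437 (minus), Rps27l at chr9:66946271-66946340 (plus) and Sesn1 at chr10:41887241-41887300 (plus). The capitals of Ccng1 and Rps27l are tandem pairs. Aen also held a half-site, past its first start site, which is not printed.
Mdm2: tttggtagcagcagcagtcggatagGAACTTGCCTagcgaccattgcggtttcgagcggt
Ccng1: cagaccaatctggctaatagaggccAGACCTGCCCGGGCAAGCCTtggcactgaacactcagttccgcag
Ckap2: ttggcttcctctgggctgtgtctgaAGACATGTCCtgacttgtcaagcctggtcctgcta
Ei24: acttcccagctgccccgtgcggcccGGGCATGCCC
Polk: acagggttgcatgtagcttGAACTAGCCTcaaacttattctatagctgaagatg
Rps27l: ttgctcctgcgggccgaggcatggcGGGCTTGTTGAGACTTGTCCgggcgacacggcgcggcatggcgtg
Sesn1: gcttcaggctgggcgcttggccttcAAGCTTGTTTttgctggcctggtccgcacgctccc

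Facts of the whole series bear on every value below. Bmi1 itself was not lower in the mutant-labelled arrays: its brighter probe set read 996, 980 and 1164 in wild type and 1276, 1498 and 1565 in the mutant-labelled arrays, in the order of replicates 1, 2 and 3 kept below (two-sided exact permutation p = 0.1, the smallest that 3 arrays against 3 allow). Its other probe set overlapped between the genotypes (two-sided exact permutation p = 0.7). Where its probes lie relative to the missing part is not known, so all directions rest on the labels. Despite the sort, Ptprc, which encodes CD45, read between 6639 and 8507 in wild type and between 5048 and 6708 with the mutant label. Pecam1, which encodes CD31, read 1907 to 2829 and 2691 to 3185. These arrays measured bulk RNA, in which fewer cells of a type and less RNA per cell cannot be told apart. Signal is the authors' intensity on a linear scale, and a log2 difference is mutant-labelled minus wild type on the scale of log2(signal + 16).

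No p53 target passed the test. Of 30 measured members 0 were called by limma at an adjusted p under 0.05, while 0.923% of all 18193 genes were called, 75 higher and 93 lower. At an unadjusted p under 0.05 stood 4 members, Phlda3, Eda2r, Dcxr and Perp, which is 4 of 30 against 14.5% of all genes. The lowest adjusted p of a member was 0.132, for Phlda3. The members' median log2 difference was -0.0076, with 15 above 0 and 15 below 0, against a median of 0.0059 and 50.7% above 0 over all genes. The summed signal of the members ranged from 52973 to 55719 in the wild-type arrays and from 52965 to 58655 in the mutant-labelled arrays, so the genotypes overlapped. Bright members such as Ddit4 and Btg2 add most to this sum, and dim ones such as Eda2r hardly move it.

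The precision of the arrays sets what these differences can say. For 20 of 30 members the 95% interval of limma lay within a log2 difference of 1 in either direction, which is a 2-fold change, against 63.4% of all genes. The other 10 were Plk3, Ckap2, Bbc3, Perp, Fas, Tnfrsf10b, Eda2r, Phlda3, Sesn2 and Dcxr. For 25 of 30 members the difference itself was under 0.5 in size, against 78.5% of all genes.

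**Figure D1:**
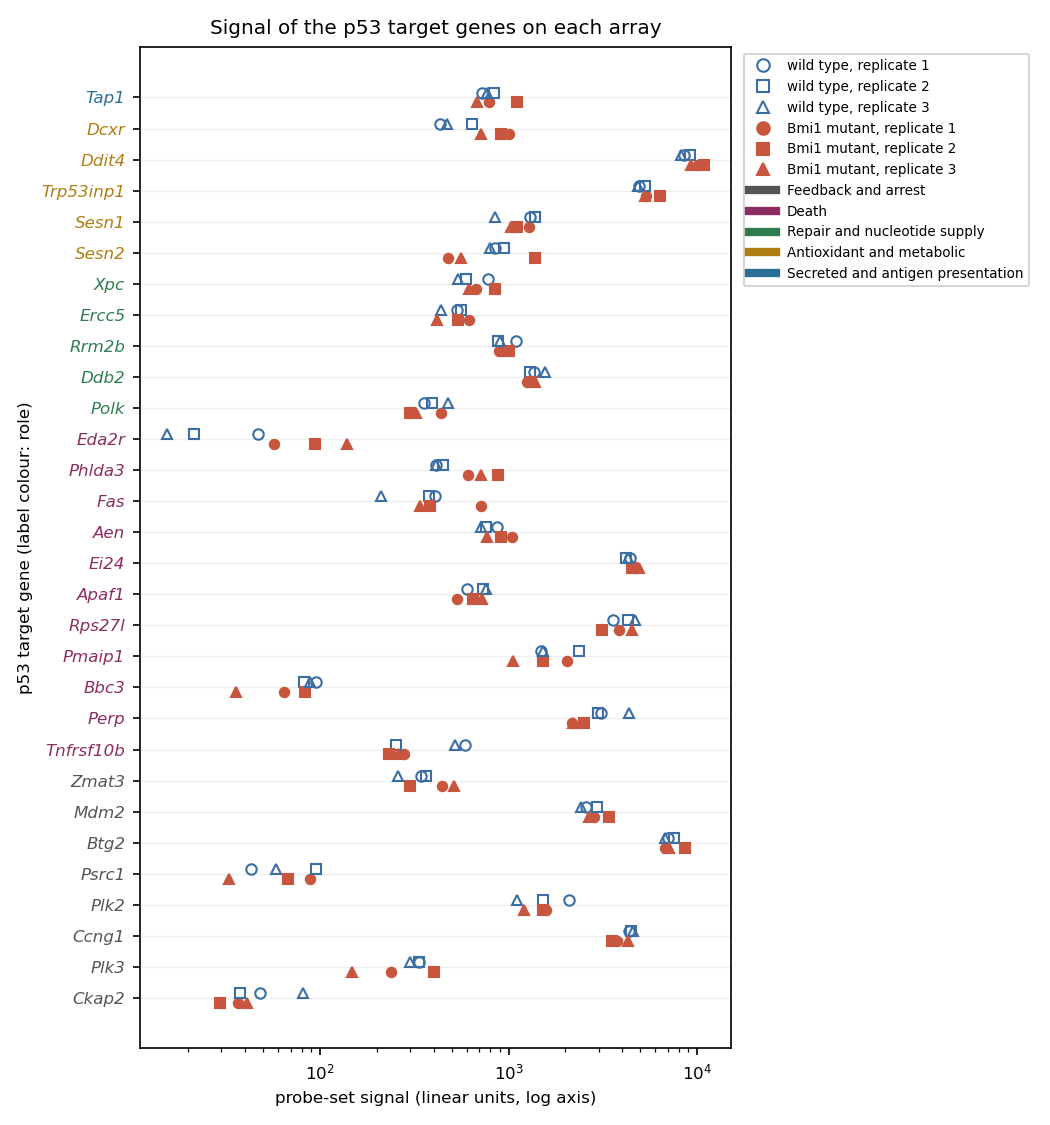
Signal of the 30 measured p53 targets on each of the 6 arrays, on a log axis of linear signal units, with open blue symbols for wild type, filled red symbols for Bmi1 mutant and label colours for the role of the gene. Circles, squares and triangles stand for replicates 1, 2 and 3, and in 22 of the 30 genes the symbols of the genotypes overlap.

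In 8 of the 30 members the genotypes gave separate ranges of signal, against 20.5% of all genes. Phlda3, Eda2r, Dcxr, Ddit4, Trp53inp1 and Ei24 were higher in every mutant-labelled array than in any wild-type array, which is 6 of 30 against 10.4% of all genes. Perp and Ccng1 were lower in every mutant-labelled array, which is 2 of 30 against 10% of all genes. By probe set, 0 of 59 were called, with a lowest adjusted p of 0.164, against 0.469% of all probe sets. At that level 9 of the 59 did not overlap, against 19.6% of all.

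**Figure D2:**
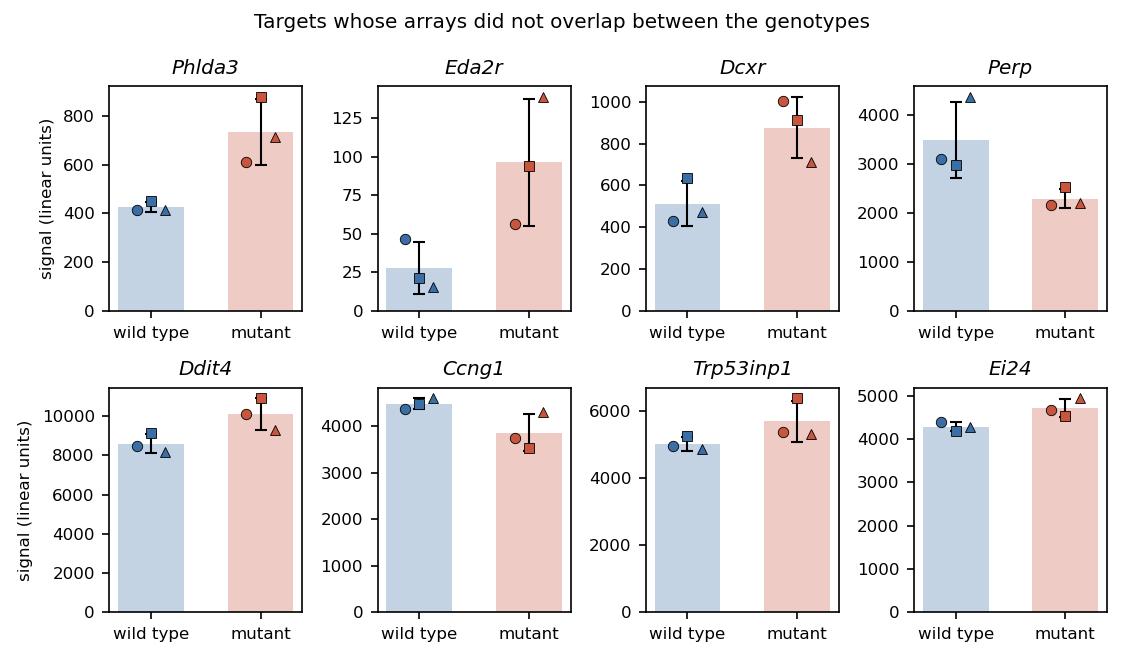
Linear signal of the 8 members whose arrays did not overlap, with bars for the mean, error bars for the SD of 3 arrays, and circles, squares and triangles for replicates 1, 2 and 3. Phlda3, Eda2r and Dcxr have the greatest means in the mutant-labelled arrays relative to wild type, and none of the 8 passed the adjusted threshold.

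Of the 8 feedback and arrest genes 3 lay above 0 and 5 below 0, with a median of -0.08, and the genotypes separated in 1, Ccng1. Mdm2, the ligase that marks p53 for destruction, ranged from 2421 to 2927 in the wild-type arrays and from 2660 to 3429 in the mutant-labelled arrays. Its log2 difference was 0.17 ± 0.18 (SE, n = 3 per genotype, adjusted p = 0.734), with a 95% interval from -0.25 to 0.59. Without mutant-labelled replicate 2 it was 0.06, and with median centring it was 0.26. The 3 Mdm2 probe sets differed by 0.17, 0.21 and 0.21. Mdm2 thus overlapped between the genotypes, and its interval held 0 and lay inside a 2-fold change.

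Ccng1 encodes cyclin G1, which is known to recruit a phosphatase to Mdm2. It read 4370, 4464 and 4594 in wild type and 3738, 3526 and 4299 in the mutant-labelled arrays. The mutant-labelled arrays all lay lower, and the log2 difference was -0.22 ± 0.16 (SE, adjusted p = 0.593). Its other 2 probe sets lay below 0 as well, at -0.36 and -0.10, and their arrays overlapped.

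Zmat3 encodes an RNA-binding protein induced by p53. It read 341, 363 and 260 in wild type and 446, 301 and 514 in the mutant-labelled arrays, which overlapped, with a log2 difference of 0.35 ± 0.25 (SE, adjusted p = 0.580). Leaving out single arrays moved it between 0.20 and 0.57. Ckap2, which encodes a protein of the mitotic spindle, read 48.2, 37.8 and 80.8 in wild type and 36.6, 29.4 and 41.1 in the mutant-labelled arrays. Wild-type replicate 3 was the highest array of Ckap2, the groups overlapped, and the log2 difference was -0.43 ± 0.25 (adjusted p = 0.495), or -0.19 without that array and -0.25 at an offset of 64.

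Markers of proliferating cells lay lower in the mutant-labelled arrays. Gene by gene, 7 of the 15 overlapped between the genotypes, as Ckap2 did. The other 8 were lower without overlap, against 10% of all genes. All 15 measured markers of that list lay below 0, with 1 of 15 called lower by limma, against 0.923% of all genes called. Their summed signal ran from 8404 to 14147 in wild type and from 3929 to 5900 in the mutant-labelled arrays. Wild-type replicate 3 held both the highest sum and the highest Ckap2 signal. Wild-type replicate 2 held a sum of 10996, above the 8404 of replicate 1, and the lowest Ckap2 signal of wild type, 37.8. No marker stood at 0. The part of proliferating cells in the Ckap2 value was not tested.

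The remaining arrest genes overlapped between the genotypes. Btg2, an antiproliferative cofactor of mRNA decay, differed by 0.08 ± 0.17 (SE) and the polo-like kinase gene Plk2 by -0.09 ± 0.26. Plk3, a kinase of the same family, differed by -0.39 ± 0.33. Its wild-type arrays read 299 to 336, while its mutant-labelled arrays ran from 147 to 400, on both sides of the wild-type range, and the difference was -0.73 without mutant-labelled replicate 2 and -0.06 without mutant-labelled replicate 3. Psrc1, which encodes a spindle protein, differed by -0.07 ± 0.35 and was dim, with all arrays below 100.

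The lowest and the highest log2 difference of the list both belonged to death genes. Phlda3 encodes a repressor of the survival kinase Akt. It read 413, 449 and 414 in wild type and 612, 879 and 713 in the mutant-labelled arrays. Every mutant-labelled array lay above every wild-type array, and the wild-type arrays lay close together. The wild-type mean was 425 ± 20.5 and the mutant-labelled mean 735 ± 135 (SD, n = 3 each), which is 1.73 times higher. On the log2 scale this was 0.75 ± 0.18 (SE), with a 95% interval from 0.31 to 1.19 and an adjusted p of 0.132 by limma.

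Eda2r, a death receptor of the tumour necrosis factor receptor family, read 46.9, 21.3 and 15.4 in wild type and 56.6, 93.7 and 139 in the mutant-labelled arrays. The highest wild-type array lay close under the lowest mutant-labelled one. The log2 difference of 1.35 ± 0.36 (SE, adjusted p = 0.158) was the greatest of the members, but the signals were near the dim end of the arrays. Changing the offset to 1 gave 1.81, and to 64 gave 0.79.

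Perp encodes a membrane protein of desmosomes in epithelia that also takes part in p53-dependent death. It read 3090, 2969 and 4368 in wild type and 2158, 2518 and 2197 in the mutant-labelled arrays. All mutant-labelled arrays were lower, and wild-type replicate 3 stood above the other wild-type arrays. The log2 difference was -0.58 ± 0.20 (SE, adjusted p = 0.263), and -0.40 without that replicate. Perp is known from epithelial cells. In the same arrays alveolar type 2 markers summed to 66495 to 76973 in wild type against 79701 to 84726, and alveolar type 1 markers to 17731 to 20893 against 21900 to 23879. Gene by gene, 3 of the 7 type 2 and 1 of the 6 type 1 markers did not overlap, against 20.5% of all genes. That type 1 marker was Pdpn, with a log2 difference of 1.51, while Cav1 lay at -0.16. Pdpn and Cav1 are named after their values were seen. The 3 club cell markers summed to 30040 to 37366 against 31398 to 36134. Of these, Scgb1a1 and Scgb3a2 lay above 0, at 0.04 and 0.12, and overlapped between the genotypes. Cyp2f2 was lower in every mutant-labelled array, with 5446 to 5710 against 3379 to 4124. Its log2 difference was -0.62 (adjusted p = 0.146 by limma), and Cyp2f2 is named after its values were seen. The part of epithelial cells in the Perp value was not tested.

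Tnfrsf10b encodes a receptor for the death ligand Trail. It read 584, 252 and 522 in wild type and 279, 232 and 258 in the mutant-labelled arrays. Wild-type replicate 2 lay among the mutant-labelled arrays, and the log2 difference was -0.70 ± 0.32 (SE, adjusted p = 0.373). Without wild-type replicate 2 it was -1.06 (adjusted p = 0.154). The other probe set of the gene differed by 0.02, and the mean of both by -0.34. Bbc3, which encodes the mitochondrial death protein Puma, read 94.9, 82.2 and 88.0 in wild type and 64.2, 83.4 and 35.7 in the mutant-labelled arrays, with a log2 difference of -0.49 ± 0.26 (SE, adjusted p = 0.452). Mutant-labelled replicate 2 lay within the wild-type range of Bbc3, and the difference was -0.22 without mutant-labelled replicate 3 and -0.30 at an offset of 64.

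Ei24, a gene of the endoplasmic reticulum linked to death and autophagy, read 4396, 4188 and 4285 in wild type and 4683, 4529 and 4945 in the mutant-labelled arrays. The groups did not overlap, while the log2 difference of 0.14 was no larger than its SE of 0.15 (adjusted p = 0.739). Fas, a death receptor, differed by 0.48 ± 0.36 (adjusted p = 0.608), with mutant-labelled replicate 1 at 715 and the other arrays from 210 to 409. Without that array it was 0.16, and without wild-type replicate 3 it was 0.20.

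Other death genes overlapped between the genotypes. The nuclease gene Aen differed by 0.21 ± 0.18 (SE), the apoptosome gene Apaf1 by -0.13 ± 0.19, Pmaip1, which encodes Noxa, by -0.24 ± 0.30 and Rps27l by -0.14 ± 0.21. Rps27l encodes a close copy of a ribosomal protein, so its probe sets may also take up transcripts of that relative, and its 3 probe sets differed by -0.14, -0.24 and -0.31. Of the 11 measured death genes 5 lay above 0 and 6 below 0, with a median of -0.13.

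**Figure D3:**
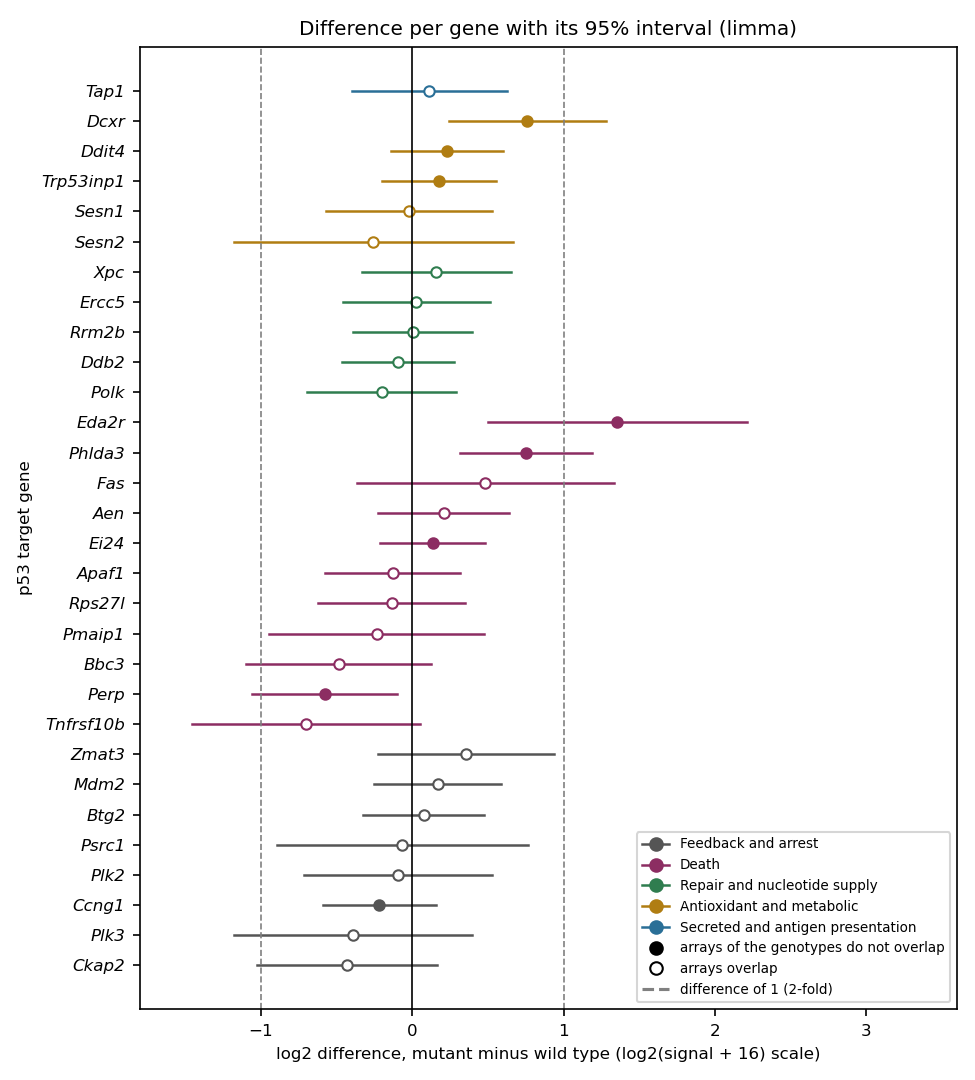
Log2 difference of each member, mutant-labelled minus wild type, with the 95% interval of limma, coloured by role. Filled points mark genes whose arrays did not overlap, dashed lines mark a 2-fold change, and the intervals of Phlda3, Eda2r, Dcxr and Perp lie clear of 0.

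Repair genes did not differ beyond the spread of the arrays, and in none of the 5 did the genotypes separate. Polk encodes a polymerase that copies past damaged bases and differed by -0.20 ± 0.21 (SE). Xpc and Ddb2, which recognise ultraviolet damage for nucleotide excision repair, differed by 0.16 ± 0.21 and -0.09 ± 0.16. The nuclease gene Ercc5 differed by 0.03 ± 0.20. Rrm2b, the subunit of ribonucleotide reductase that p53 induces, differed by 0.0037 ± 0.17 and had a 95% interval from -0.39 to 0.40. All 5 intervals lay within a 2-fold change. Of the 4 Rrm2b probe sets the dimmest was lower in every mutant-labelled array, at -0.41 (adjusted p = 0.395 over all probe sets).

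Of the 5 antioxidant and metabolic genes 0 were called, and 3 were higher in every mutant-labelled array, against 10.4% of all genes. Dcxr encodes a carbonyl reductase of sugar metabolism. It read 430, 637 and 473 in wild type and 1002, 915 and 715 in the mutant-labelled arrays. Each mutant-labelled array lay above the wild-type arrays, and the mean was 1.71 times higher, a log2 difference of 0.76 ± 0.22 (SE, n = 3 per genotype, adjusted p = 0.184).

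Ddit4, which encodes an inhibitor of the growth kinase mTOR, read 8472, 9120 and 8174 in wild type and 10107, 10893 and 9267 in the mutant-labelled arrays. Trp53inp1, a nuclear stress protein that promotes p53 activity and autophagy, read 4944, 5263 and 4856 in wild type and 5365, 6377 and 5317 in the mutant-labelled arrays. In both genes the groups lay close to each other without overlap. The log2 differences were 0.23 ± 0.16 (SE, adjusted p = 0.567) for Ddit4 and 0.17 ± 0.16 (adjusted p = 0.682) for Trp53inp1. Without mutant-labelled replicate 2 that of Trp53inp1 was 0.09, and with median centring it was 0.27.

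The sestrins, stress proteins that restrain mTOR and support antioxidant defence, overlapped between the genotypes. Sesn1 differed by -0.02 ± 0.23 (SE), and Sesn2 by -0.26 ± 0.39. Sesn2 read 794 to 951 in wild type, while its mutant-labelled arrays read 475, 1384 and 559, so that mutant-labelled replicate 2 alone stood above the wild-type range and the other two stood below it. Without mutant-labelled replicate 2 the log2 difference of Sesn2 was -0.72 (adjusted p = 0.182), and without mutant-labelled replicate 1 it was 0.03. Tap1, the peptide transporter of antigen presentation, differed by 0.11 ± 0.22 and overlapped.

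Single arrays stood out among the members. Mutant-labelled replicate 2 held the highest signal for 9 of the 30 members (30.0%, against 20.4% of all genes): Mdm2, Btg2, Plk3, Phlda3, Xpc, Sesn2, Trp53inp1, Ddit4 and Tap1. Wild-type replicate 3 held the lowest signal for 11 of the 30 (36.7%, against 17.1% of all genes), among them Mdm2, Btg2, Trp53inp1 and Ddit4. The same array held the highest signal for 7 of the 30 (23.3%, against 16.2% of all genes), among them Perp, Ccng1 and Ckap2. These are descriptions of single arrays and were not tested.

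Other genes of the p53 pathway were not called either. Of 32 listed regulators and partners 29 were measured and 0 were called by limma, against 0.923% of all genes. At an unadjusted p under 0.05 stood 3 of 29 (1 higher and 2 lower), against 14.5% of all genes. The genotypes did not overlap in 6 of the 29 (20.7%), 4 higher and 2 lower, against 20.5% of all genes. The median log2 difference of the 29 was -0.09. Trp53, which encodes p53 itself, was not analysed here. Cdkn2a, the Ink4a/Arf gene, read 36.4, 38.2 and 15.8 in wild type and 80.9, 100.2 and 56.2 in the mutant-labelled arrays, without overlap. Its log2 difference was 1.06 ± 0.28 (SE, adjusted p = 0.158). Its signals were dim in both genotypes, and at an offset of 64 the difference was 0.60. Mdm4, a relative of Mdm2 that also restrains p53, differed by -0.35 ± 0.25 (adjusted p = 0.589).

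Among the regulators the smallest p values belonged to Chek1, Cdkn2a, Pml and Atm. Chek1, the checkpoint kinase of stalled replication, read 96.3, 85.8 and 162 in wild type and 40.7, 28.4 and 26.3 in the mutant-labelled arrays. All mutant-labelled arrays lay lower, and the log2 difference was -1.42 ± 0.26 (SE, adjusted p = 0.0666), or -0.55 (adjusted p = 0.294) with the mean of its probe sets and -0.88 at an offset of 64. Proliferating cell markers were lower in the same arrays, with the sums given for Ckap2, and their part in the Chek1 value was not tested. The damage kinase gene Atm differed by -0.40 ± 0.19 (adjusted p = 0.404) and Pml, which encodes the scaffold of nuclear bodies, by -0.78 ± 0.31 (adjusted p = 0.319).

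Of 32 further p53 targets 29 were measured, with 0 called by limma, against 0.923% of all genes. At an unadjusted p under 0.05 stood 1 higher and 1 lower of the 29, against 14.5% of all genes in either direction. The median log2 difference of the 29 was -0.01. Cdkn1a, the cell cycle inhibitor p21 and the standard readout of p53, ranged from 7558 to 8960 in wild type and from 8261 to 10744 in the mutant-labelled arrays. Its log2 difference was 0.12 ± 0.18 (SE, adjusted p = 0.833), with a 95% interval from -0.31 to 0.54, which lies inside a 2-fold change, as does that of Mdm2.

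Thbs1 and Trp53i11 had the smallest p values of the further targets. Thbs1, the matrix protein thrombospondin, read 3133, 2730 and 2812 in wild type and 5249, 7037 and 4880 in the mutant-labelled arrays. Its log2 difference of 0.96 ± 0.19 (SE) had an adjusted p of 0.0837, which fell under 0.05 in 3 of the 15 alternatives. Trp53i11, a p53-induced gene, read 257, 316 and 342 in wild type and 97.3, 208 and 104 in the mutant-labelled arrays. Its log2 difference was -1.14 ± 0.29 (adjusted p = 0.146). Casp1, the protease of the inflammasome, differed by -0.65 ± 0.28 (adjusted p = 0.344) and Tigar, a regulator of glycolysis, by -0.55 ± 0.26 (adjusted p = 0.389), or -0.26 with the mean of its probe sets. Thbs1 and Trp53i11 lay apart in opposite directions, each without overlap. Among the 29 further targets 3 did not overlap (10.3%), 2 higher and 1 lower, against 20.5% of all genes. Foxo3 was the remaining gene, higher in every mutant-labelled array, with a log2 difference of 0.31 ± 0.16 (SE, adjusted p = 0.443 by limma).

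**Figure D4:**
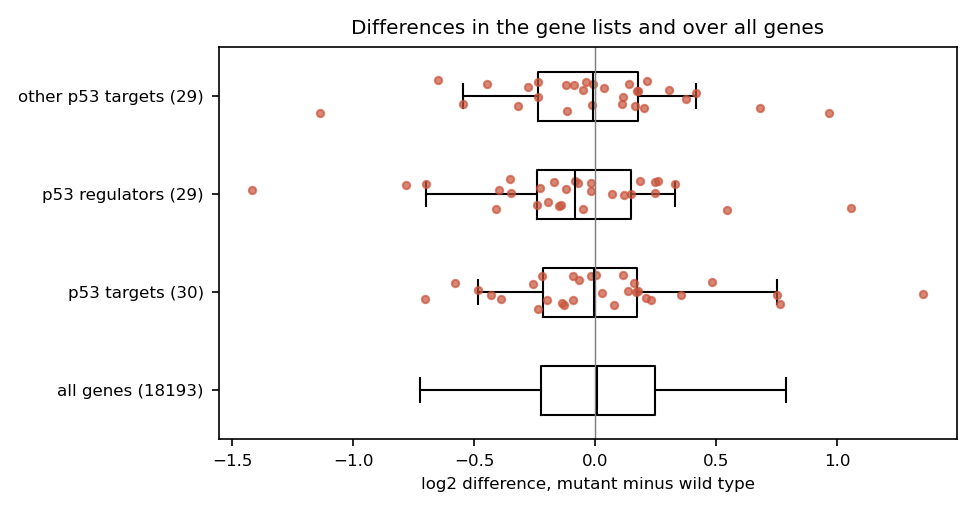
Log2 differences of the p53 targets, of p53 regulators and of further p53 targets (points) beside the distribution over all 18193 genes, with boxes from the first to the last quartile and whiskers from the 5th to the 95th percentile. The medians of -0.0076, -0.09 and -0.01 lie near that of all genes, 0.0059.

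Several lists of cell type markers separated the genotypes by their summed signal, while the summed p53 targets did not. Bright genes add most to each of these sums. Lymphocyte markers were lower, with 6 of 11 called lower by limma, against 0.923% of all genes called in either direction. Their summed signals were 25412 to 36429 in wild type and 10486 to 13715 in the mutant-labelled arrays. Fibroblast markers, with 1 of 10 called higher, summed to 22908 to 45078 and 50117 to 52326. Gene by gene, 3 of the 10 did not overlap between the genotypes, against 20.5% of all genes. Of the 9 smooth muscle and pericyte markers 0 were called. At an unadjusted p under 0.05 stood 8 of 9, all higher, against 14.5% of all genes in either direction. The 9 summed to 3165 to 9826 and 11287 to 13710. The 10 myeloid markers summed to 37964 to 51563 and 51155 to 73530 and the 8 endothelial markers to 14754 to 24377 and 18025 to 20501, both with overlap, while the 4 ciliated cell markers summed to 5229 to 5822 and 7068 to 7267. No marker stood at 0 in any of these lists. The part of these cell types in the values of Phlda3, Eda2r, Dcxr, Perp and Thbs1 was not tested.

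**Figure D5:**
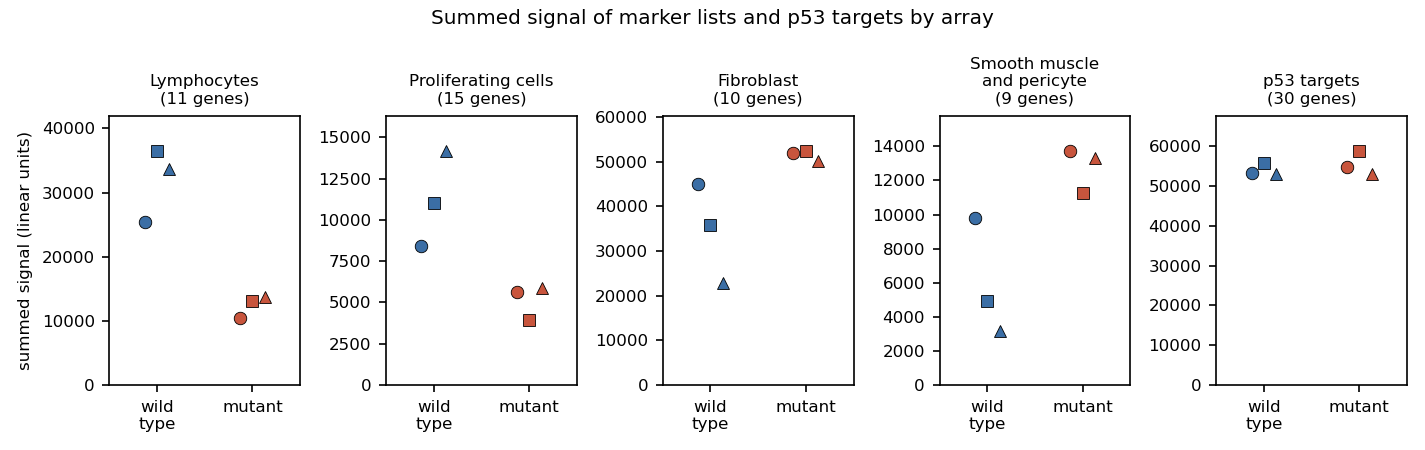
Summed linear signal of 4 marker lists and of the 30 p53 targets on each array, with circles, squares and triangles for replicates 1, 2 and 3. These 4 marker lists separate the genotypes, while the myeloid, endothelial and club lists, which are not drawn, overlap. The p53 targets run from 52965 to 58655 over all 6 arrays and overlap. Bright genes add most to each of the sums.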

How the data were processed

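RNA of sorted lung cells was amplified before labelling, per the labels, and measured on 6 arrays, 3 per genotype. The authors deposited linear intensities, 1 per probe set and array. The submitters' processing notes name Affymetrix Expression Console 1.1. For summarization and detection calls no source used here gives a method. All arrays share a trimmed mean of 500.002, so a shift of all genes together cannot be seen.

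Intensities were turned to log2(signal + 16). Of 45101 probe sets, 64 controls, 932 with several gene symbols and 9160 with none were left out, and of several probe sets the one highest on average stood for each of 18193 genes. Mutant-labelled and wild-type arrays were compared by moderated linear models (limma 3.58.1, functions lmFit and eBayes, under R 4.3.3), with Benjamini-Hochberg adjustment over all genes. The standard errors and 95% intervals are limma's moderated ones. The test was tried on simulated arrays with independent noise, in which the changed genes differed by 2-fold or more. Most members differed by less, and that trial does not cover such differences. The members and lists were chosen with earlier results of these data known.

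All 30 members, Bmi1, Cdkn1a, Cdkn2a, Mdm4 and Foxo3, and up to 4 genes with the smallest p of each further list, are named. Members among the 10 with the smallest p, or without overlap, are given array by array. Mdm4, Foxo3, the array-level values of Plk3, Fas and Sesn2 and the members ranked by array were chosen after their values were seen. Promoter sequences are RefSeq's (GRCm38.p6). RefSeq names of that assembly changed 0 of the annotation's symbols, and 2 of the 32 listed genes, 3 of 32 regulators and 3 of 32 further targets were not analysed here. Same-numbered replicates were not taken as pairs. The correlations of their deviations from the genotype means were 0.07, 0.05 and 0.03, against -0.057 to 0.0014 for arrays of unlike number. These values do not settle whether the arrays are pairs, and the replicate block was run as an alternative. The alternatives were other normalizations, offsets, filters, ways to join probe sets and variance priors, the replicate block, and leaving out each array. The number of arrays limits the precision. Figures were drawn with matplotlib 3.10.9.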

Additional observations from a re-analysis of the deposited data

How the results depend on the processing

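No p53 target was called under any of the 15 alternatives, nor any of its probe sets under those that keep probe sets apart, and the lowest adjusted p of a member was 0.0722 (Phlda3, genes with a mean signal of at least 100). No regulator was called either. Of the further targets 1, Thbs1, was called with an offset of 64 (adjusted p = 0.0489), in genes with a mean signal of at least 100 (adjusted p = 0.0415) and with the intensity trend and robust prior (adjusted p = 0.0108), against 0 as reported. The members' median was 0.087 with median centring, where all genes had a median of 0.10, and ran from -0.045 to 0.10 as single arrays were left out. Over all genes 168 were called, against 33 with an offset of 1, 265 with an offset of 64, 308 above a mean signal of 100, 438 with the trend, 2 to 76 as single arrays were left out (2 without wild-type replicate 2, 8 without wild-type replicate 3, 23 without mutant-labelled replicate 1, 61 without mutant-labelled replicate 2, 65 without wild-type replicate 1, 76 without mutant-labelled replicate 3), and 119 higher and 88 lower with median centring, against 75 and 93. With the replicate block 0 were called. As no p53 target was called as reported and the block called no gene, the block could not change a call of a p53 target. The cause of its effect on all genes was not tested. In deviations from the genotype means, every array correlated best with its own number in the other genotype, at 0.03 to 0.07.

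Of 30 members 18 kept their direction under all alternatives that could be run. With median centring Plk2 was at 0.0023, Psrc1 at 0.029, Ddb2 at 0.0015 and Sesn1 at 0.076. With the mean of probe sets Psrc1 was at 0.13, Aen at -0.046, Rrm2b at -0.098 and Tap1 at -0.11. As single arrays were left out, Plk2 ran from -0.32 to 0.14, Psrc1 from -0.30 to 0.25, Sesn1 from -0.24 to 0.11, Rrm2b from -0.051 to 0.10, Ercc5 from -0.097 to 0.18, Sesn2 from -0.72 to 0.032, Btg2 from -0.031 to 0.15, Rps27l from -0.26 to 0.0034, Tap1 from -0.082 to 0.26, Pmaip1 from -0.46 to 0.0059 and Cdkn1a from -0.0081 to 0.18. None of these was called in any setting. Among members that did not turn in this way, the same step moved Aen between 0.10 and 0.32, Apaf1 between -0.23 and -0.014, Polk between -0.36 and -0.087, Xpc between 0.032 and 0.30 and Ddb2 between -0.14 and -0.021. The alternative with genes of a mean signal of at least 100 gave no value for 4 dim members, Bbc3, Ckap2, Eda2r and Psrc1. Without detection calls, dim members such as these have values of unknown distance from background.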
